A study of Mus musculus with 9 samples.

Results

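The genes described here are the GTPases Rac1 and Rac3 and 8 exchange factors that act on Rac: Prex1, Prex2, Tiam1, Tiam2, Vav2, Vav3, Trio and Dock8. They were chosen by gene symbol, as every probe set that the platform annotation gives to 1 of these 10 genes, which gave 29 of the 45037 probe sets on the array that are not controls. Of these, 11 probe sets of 7 genes had a mean signal of at least 100 over the arrays and were tested, among 19090 probe sets tested in all. The other 18, among them every probe set of Prex1, Rac3 and Vav3, lay below that level. Signals are given for some of them, and whether the lines overlapped for all.

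Rac is a small GTPase that drives the actin sheets at the leading edge of a moving cell when it carries GTP. Exchange factors load it with GTP, GTPase-activating proteins return it to the resting state, and dissociation inhibitors hold it away from the membrane. P-Rex1 and P-Rex2 are exchange factors activated together by the lipid product of PI3-kinase and by G protein beta-gamma subunits, Tiam and Trio proteins share the same kind of catalytic domain, Vav proteins are switched on by tyrosine phosphorylation, and Dock8 belongs to a structurally separate family that acts on Cdc42 and Rac.

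Expression was measured on 9 Affymetrix mouse arrays, in fibroblasts taken from E13.5 embryos and spontaneously immortalised. Of the 9, 3 arrays came from cells lacking Suv420h1, a histone H4 methyltransferase whose current symbol is Kmt5b: untransduced, given GFP, and reconstituted with a Suv420h1-GFP fusion. They are called the null line here. The other 6 came from wild-type cells, the wild-type line, that carried 1 construct each: GFP, LacZ, full-length PREX2, or the PREX2 mutants K278*, E824* and Q1430*, whose names mark the residue replaced by a stop codon. The PREX2 mutants were delivered by lentivirus. The groups were null (2 arrays, untransduced and GFP), reconstituted (1), control vector (the GFP and LacZ arrays of wild-type cells), full-length (1) and truncated PREX2 (3). The labels do not state the species of the PREX2 constructs or how many embryos gave each genotype, so the Suv420h1 genotype and other differences between the immortalised lines cannot be told apart. No construct was measured on more than 1 array and nothing says that arrays came from separate cultures. The p-values therefore measure the spread between arrays that differ in construct within a group, not between replicates of a condition. Part of that spread may be technical.

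Median signals lay between 56.3 and 68.7. At 1 of the 5 Kmt5b probe sets (1451817_at) the untransduced and GFP null arrays read 8.85 and 17.3, the reconstituted array 150.3 and the wild-type-line arrays 118 to 182, the order the labels imply. Of its other probe sets, 1442764_at was also lower on every null-line array (66.2 to 101 against 103 to 153), 1455171_at was higher (462 to 554 against 221 to 338) and the rest overlapped. Within the wild-type line the GFP array differed by more than 2-fold from K278* at 493 tested probe sets and from the others at 946 to 1914, including LacZ at 1301. The other 5 arrays differed among themselves at 65 to 648, the most between K278* and E824*. Members' differences from control vector rest in part on the GFP array. Those given for Prex2, Tiam1, Tiam2, Dock8 and 1 Trio probe set are given with and without it. All 12 fibroblast markers examined passed the signal level, but Thy1 read 6.90 to 27.3 in the null line and 1097 or more on every wild-type-line array. Summed signals of markers of other cell types also moved with the line. Those of 8 neural genes summed to between 215 and 411 in the null line and between 1054 and 2232 in the wild-type line, with 6 of the 8 below a mean of 100, and those of 9 leukocyte genes to between 727 and 827 against 1191 to 1514, with 6 of the 9 below it. Summed signals of 6 epithelial markers were higher in the null line (2504 to 3313 against 625 to 716) through Perp alone: Krt19 was lower (46.6 to 89.1 against 209 to 374), Epcam overlapped, and Cdh1, Krt8 and Krt18 were below a mean of 100. Those of 6 endothelial markers were higher (765 to 880.01 against 386 to 725) through Eng (536 to 667 against 121 to 224). Tek read 43.4 to 91.3 in the null line, against 55.0 on the wild-type GFP array and 193 to 488 on the rest, and Pecam1, Cdh5, Kdr and Tie1 were below a mean of 100. Summed muscle markers overlapped. No marker was listed at 0, and the part of these differences in the results below was not tested.

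The member with the largest difference between the lines was Tiam1, and the sequence before its 2 annotated start sites is shown for that reason. RefSeq promoters (build GRCm38.p6) were found for 8 of the 10 genes, 13 in all. The 250 bases before each Tiam1 start site, both on the minus strand and written 5′ to 3′ on that strand, follow, with CG pairs in capitals. The first lies at chr16:89974700-89974949 and the second at chr16:89818353-89818602.
Tiam1 start site 1: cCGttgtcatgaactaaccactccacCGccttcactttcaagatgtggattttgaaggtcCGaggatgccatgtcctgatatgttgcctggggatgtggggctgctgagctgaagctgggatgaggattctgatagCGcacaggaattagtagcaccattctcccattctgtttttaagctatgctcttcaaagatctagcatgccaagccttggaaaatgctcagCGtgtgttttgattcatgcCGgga
Tiam1 start site 2: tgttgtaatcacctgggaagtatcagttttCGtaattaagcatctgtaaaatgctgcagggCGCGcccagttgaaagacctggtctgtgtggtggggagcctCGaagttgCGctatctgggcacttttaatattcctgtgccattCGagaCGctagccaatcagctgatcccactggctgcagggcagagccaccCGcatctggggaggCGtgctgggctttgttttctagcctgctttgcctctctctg
The first holds 6 CG pairs and the second 9, against a median of 6 over 32851 promoters. Over all 13 member windows the number ranged from 2, before the Vav2 start and 1 of the Tiam2 starts, to 43 before the Dock8 start. An AP-1 motif (TGACTCA, either strand) and an EGR motif (GCGNGGGCG, either strand) were searched in all windows, because Fos and Egr1 were among the genes most like Tiam1 over the arrays (below). Neither was found in the Tiam1 windows. An EGR match stood in the windows of Dock8 and Rac3 and in 2 of the 3 windows of Vav3. Those 2 windows overlap and may hold the same match. The last Vav3 window held an AP-1 match. Over all 32851 windows, 4.46% held the AP-1 motif and 4.7% the EGR motif.

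**Figure D1:**
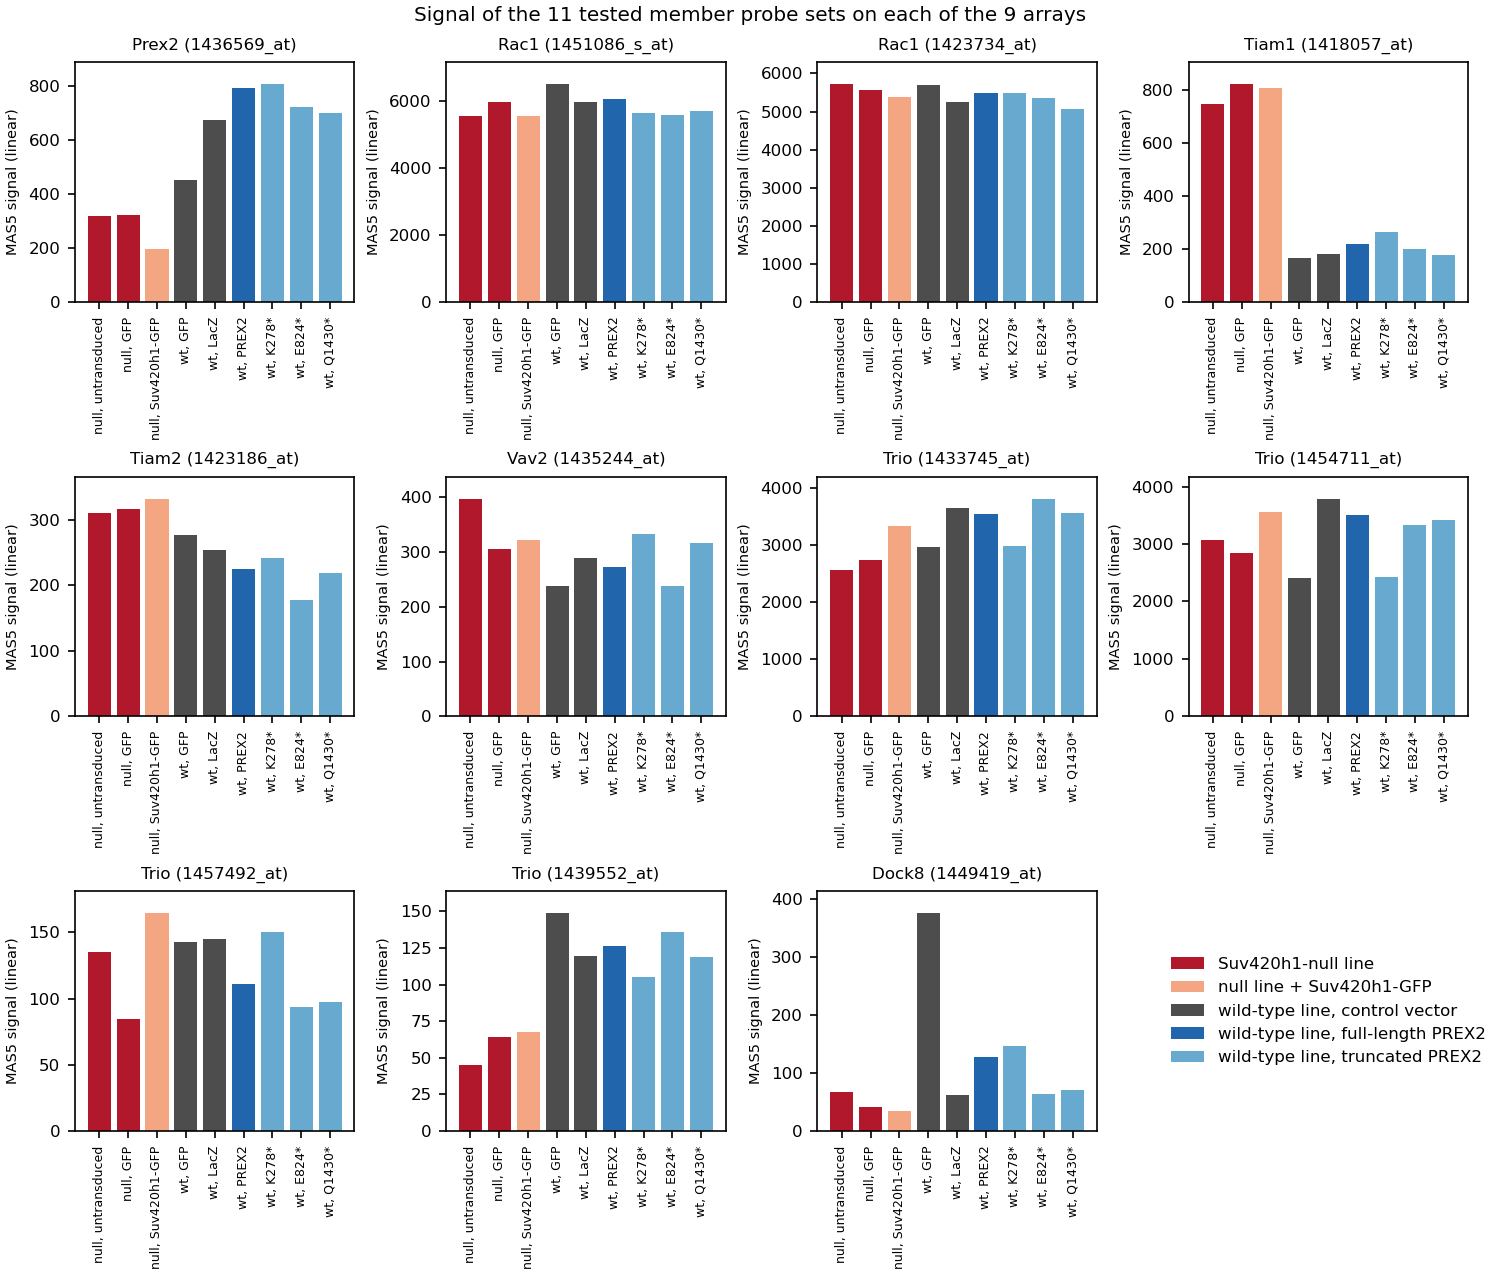
MAS5 signal (linear scale, bars from 0) of each of the 11 tested probe sets on each of the 9 arrays, coloured by line and construct. Tiam1 is between 749 and 822 on the 3 null-line arrays and at 264 or below on the 6 wild-type-line arrays, Prex2 lies the other way, and both Rac1 probe sets are nearly level across arrays.

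The comparison of the lines asks which of these genes differ between the null and wild-type lines. Over all arrays it is not a comparison of missing Suv420h1 alone. The null line includes the reconstituted array, and the wild-type line includes the PREX2 arrays. With all arrays used, 3 null-line against 6 wild-type-line, Tiam1 and Tiam2 rose and Prex2 and 1 of 4 tested Trio probe sets fell in the null line. Tiam1 was 3.65-fold higher and Prex2 2.36-fold lower (1.67-fold between the null and control-vector arrays). Whether the Prex2 probe set also reads the PREX2 expressed on wild-type-line arrays is not known. Rac1 gave no call at either of its tested probe sets. In all, 4 of 11 member probe sets were called, 2 in each direction, in limma at an adjusted p below 0.05, where 37.6% of all 19090 tested probe sets were called (19.5% higher and 18.1% lower). The members' count is close to that background. The called Trio probe set passed the signal level only through the wild-type line, where it is high, and so adds no support to these counts. The same 4 were the ones whose 3 null-line and 6 wild-type-line signals did not overlap, as at 40.5% of all tested probe sets (21.4% with the null line above and 19.1% with it below). The median log2 difference of the 11 was 0.02, against 0.004 over all tested. Between the 2 null-line arrays without reconstitution and the 2 control-vector arrays, 1 member probe set rose and 2 fell (1 and 1 without the wild-type GFP array), where 19.7% of all were called (10.7% higher and 8.94% lower). The 2 comparisons share the null and control-vector arrays. In RNA from whole cultures, fewer cells expressing a gene and less of its RNA per cell cannot be told apart. Differences here are in log2(signal + 25), which understates changes of dim probe sets.

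**Figure D2:**
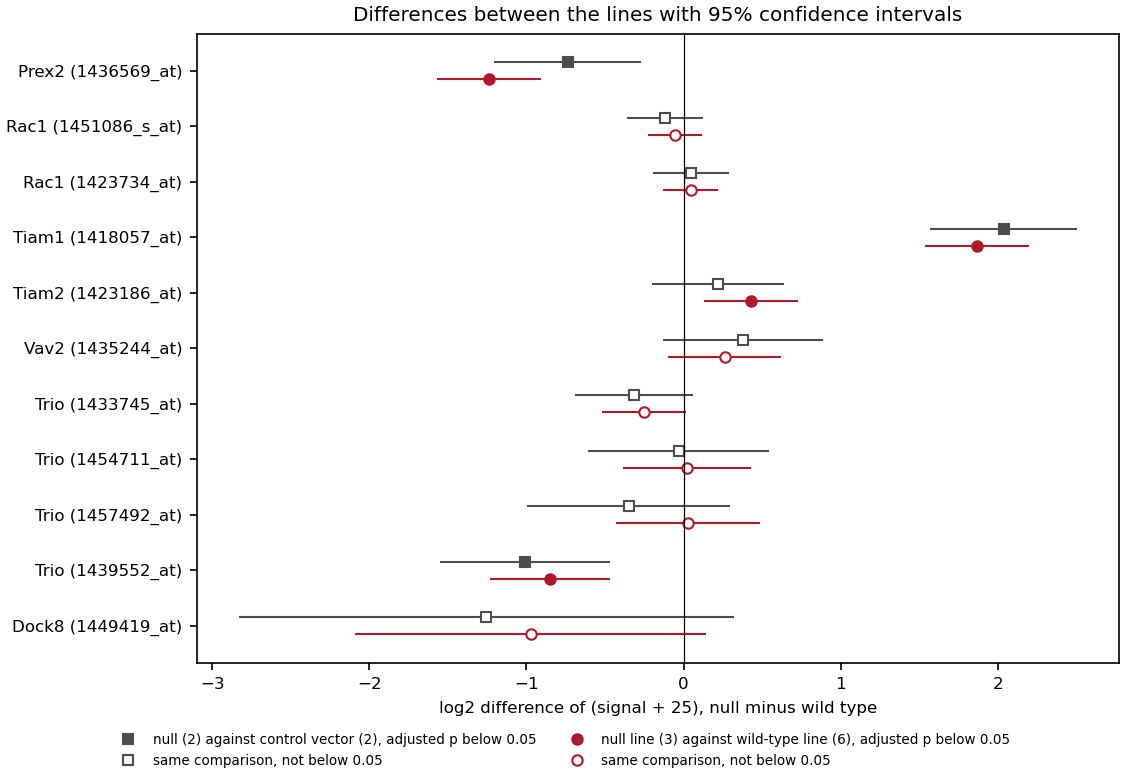
Log2 difference of (signal + 25), null minus wild type, for the 11 tested probe sets, with 95% confidence intervals from the fit across all probe sets. Squares compare 2 null with 2 control-vector arrays, circles all 3 null-line with all 6 wild-type-line arrays, and filled symbols have an adjusted p below 0.05: Tiam1 lies at 1.87 and Prex2 at -1.24 over all arrays, and both Rac1 intervals include 0.

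Tiam1 is an exchange factor specific for Rac, known for its part in cell adhesion and invasion. Its tested probe set (1418057_at) read 749 on the untransduced null array, 822 on the GFP null array and 806 on the reconstituted array. In the wild-type line it read 165 with GFP, 180.1 with LacZ, 219 with full-length PREX2, 264 with K278*, 199.9 with E824* and 177 with Q1430*. Every null-line array thus lay above every wild-type-line array by more than the whole range within either line. The log2 difference over all arrays was 1.87 (SE 0.141, 3 against 6 arrays, adjusted p = 0.000103 in limma). Between the null and control-vector arrays it reached 2.04 (SE 0.199, n = 2 in each group, limma adjusted p = 0.000852), and 1.98, still called, without the wild-type GFP array. With any 1 of the 7 arrays that were not a group of their own left out, the first value stayed between 1.82 and 1.94 and the call stood. The 2 other Tiam1 probe sets were dim, at 41.4 or below on all arrays, and their lines overlapped.

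Tiam2, the closest relative of Tiam1, had a smaller difference. Its tested probe set (1423186_at) read 310.5, 315 and 332 on the untransduced, GFP and reconstituted null arrays. On the wild-type-line arrays it read 276 with GFP, 254 with LacZ, 225 with full-length PREX2, 241 with K278*, 178 with E824* and 219 with Q1430*. The lines did not overlap, but the step between them, from 310.5 to 276, was smaller than the residual standard deviation of this probe set (0.18 in log2). The log2 difference over all arrays was 0.43 (SE 0.127, adjusted p = 0.0332 in limma, 1.35-fold). That call ended when the untransduced null array (0.45), the GFP null array (0.44), E824* (0.36) or Q1430* (0.42) was left out, after quantile normalization (0.35), and when dim probe sets were tested too (adjusted p = 0.0662). Between the null and control-vector arrays the difference was 0.22 (adjusted p = 0.43), and 0.28 without the wild-type GFP array, not called. The 2 dimmer Tiam2 probe sets overlapped between the lines.

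Prex2, the endogenous counterpart of the expressed protein, was lower in the null line. Its tested probe set (1436569_at) read 320.5 untransduced, 323 with GFP and 198 when reconstituted. In the wild-type line it read 452 with GFP, 677 with LacZ, 795 with full-length PREX2, 809 with K278*, 722 with E824* and 703 with Q1430*. All null-line arrays lay below all wild-type-line arrays, and the lowest of each line, the reconstituted and the wild-type GFP array, stood below its neighbour by more than the residual standard deviation (0.20 in log2). The other wild-type-line arrays followed each other in steps smaller than that. The log2 difference over all arrays was -1.24 (SE 0.142, 95% interval -1.57 to -0.91, adjusted p = 0.000666 in limma) and stayed between -1.35 and -1.19 with 1 array left out, always called. It includes the PREX2 arrays, and whether this probe set reads the expressed PREX2 is not known.

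Against control vector alone the Prex2 difference was smaller, at -0.74 (SE 0.201, 2 against 2 arrays, adjusted p = 0.0412). It was -1.02 without the wild-type GFP array, still called, and -0.46 without LacZ, not called. With the untransduced null array left out (-0.73, adjusted p = 0.174) or the GFP null array left out (-0.74, adjusted p = 0.18) it was not called either. It was also not called when dim probe sets were tested too (adjusted p = 0.0677) or when the compared groups were fitted alone (adjusted p = 0.112). The second Prex2 probe set (1432047_at) read between 9.24 and 43.9 on all arrays. Its lines overlapped, and tested without a signal level it differed by -0.21 (SE 0.265, adjusted p = 0.674 in limma).

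Trio, a large exchange factor for Rac, has 6 probe sets, of which 4 were tested and 1 was called. The 2 bright ones did not pass. The brightest (1433745_at) read 2553, 2736 and 3324 on the untransduced, GFP and reconstituted null arrays and between 2970 and 3809 in the wild-type line, a log2 difference of -0.25 (SE 0.114, adjusted p = 0.121). The next (1454711_at) read 2844 to 3555 and 2401 to 3792, a difference of 0.02 (SE 0.174, adjusted p = 0.937). Both bright probe sets were lowest, within the wild-type line, on the GFP and K278* arrays: the first read 2970 and 2982 there, the second 2401 and 2423.

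A dim Trio probe set (1439552_at) did fall. It read 44.8 untransduced, 64.2 with GFP and 67.7 when reconstituted. It read 149 with GFP, 119.5 with LacZ, 126 with full-length PREX2, 105.5 with K278*, 136 with E824* and 119 with Q1430* in the wild-type line. The groups did not overlap, and the log2 difference was -0.85 over all arrays (SE 0.163, adjusted p = 0.00609 in limma), called with any 1 array left out (-0.90 to -0.72). It was -1.01 against control vector (SE 0.231, adjusted p = 0.0232), a call that ended without the untransduced (-0.83) or GFP (-1.18) array of the null line or the GFP array of the wild-type line (-0.87), when dim probe sets were tested too (adjusted p = 0.0592) and with the compared groups alone (adjusted p = 0.091). Because its mean was 104, it passed the signal level only through the wild-type-line arrays. A scale with an offset of 100 in place of 25 put the difference over all arrays at -0.51, still called. The fourth tested probe set (1457492_at) read 84.8 to 165 and 93.3 to 150.2 and overlapped, at 0.03 (adjusted p = 0.921). Over the 9 arrays the called probe set correlated with the brightest at r = 0.69 and with the second at r = -0.04, and the 2 bright ones with each other at r = 0.64. The fourth tested one correlated with the other 3 at r = -0.15 to -0.10. The labels do not say which part of the transcript a probe set covers.

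Rac1, the widely expressed member of its family, was the steadiest. Its probe set 1423734_at read between 5387 and 5721 in the null line and between 5078 and 5692 in the wild-type line. Its probe set 1451086_s_at, whose name marks probes shared with related transcripts, read 5528 to 5973 and 5560 to 6495. The highest array exceeded the lowest by a factor of 1.13 and 1.17. The log2 differences between the lines were 0.04 (95% interval -0.13 to 0.22, adjusted p = 0.666) and -0.05 (-0.22 to 0.12, adjusted p = 0.601). The third Rac1 probe set was dim (24.5 to 40.6). Rac3, whose protein is closely related to Rac1, had 1 probe set with a mean of 91.8, just below the level for testing. It read 91.6 untransduced, 139 with GFP and 144 when reconstituted, against 49.8 to 96.8 in the wild-type line, and the lines overlapped only through the untransduced array. Tested without a signal level, its difference of 0.58 did not pass (SE 0.238, adjusted p = 0.145).

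The remaining exchange factors showed no called difference between the lines. Vav2, the broadly expressed Vav protein, read 397 untransduced, 305 with GFP and 320.5 when reconstituted at its tested probe set (1435244_at), and between 238 and 331 in the wild-type line. The lines overlapped, at a log2 difference of 0.26 (95% interval -0.10 to 0.62, adjusted p = 0.222). A dimmer Vav2 probe set (1435065_x_at) lay the other way, at 19.5 to 39.6 in the null line and 36.9 to 67.4 in the wild-type line. Tested without a signal level, it differed by -0.48 (SE 0.179, adjusted p = 0.109 in limma). Dock8, known for its role in leukocytes, had the widest spread of the tested probe sets, 10.7-fold from the lowest to the highest array. Its tested probe set (1449419_at) read 66.4, 41.4 and 35.0 on the untransduced, GFP and reconstituted null arrays. It read 375 on the wild-type GFP array, 147 with K278*, 127 with full-length PREX2, 70.6 with Q1430*, 63.7 with E824* and 61.4 with LacZ. Only the step from the GFP array to the next exceeded the residual standard deviation (0.67 in log2), and with a mean of 109.7 the probe set passed the signal level through that array. Its difference between the lines, -0.97 (SE 0.477), was not called in limma (adjusted p = 0.148), and was -1.11 without LacZ. Against control vector it was -1.25 (limma adjusted p = 0.234), -0.15 without the GFP array and -2.36 without LacZ. Leaving out LacZ makes the high GFP array the whole control group and takes the step between these 2 arrays out of the spread. No call is therefore drawn from the values without LacZ.

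Prex1 and Vav3 were dim throughout. The single Prex1 probe set (1434069_at) read 57.3, 33.9 and 51.2 on the untransduced, GFP and reconstituted null arrays and 5.18 to 46.5 in the wild-type line. The 3 Vav3 probe sets read between 2.43 and 68.1, and each overlapped between the lines. None of the 18 probe sets below the signal level separated the lines. Whether these transcripts were present at all cannot be read from the signals, since detection calls were not used here.

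The wild-type-line arrays address what PREX2 and its truncated forms do to gene expression. No member probe set was called in any of these comparisons. Truncated PREX2 against control vector gave 0 of 11 calls in limma, also at an unadjusted p below 0.05, where 0.00524% of all tested probe sets were called (1, of Oas1a, named after its value was seen) and 2.82% had an unadjusted p below 0.05. Full-length PREX2 against control vector gave 0 of 11, also at an unadjusted p below 0.05 (0% of all called, 1.41% unadjusted), as did truncated against full-length PREX2 (0% and 1.26%). Log2 differences of the 11 ranged from -0.71 to 0.41, from -0.31 to 0.50 and from -0.42 to 0.10 in these comparisons. The first 2 share the control arrays.

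**Figure D3:**
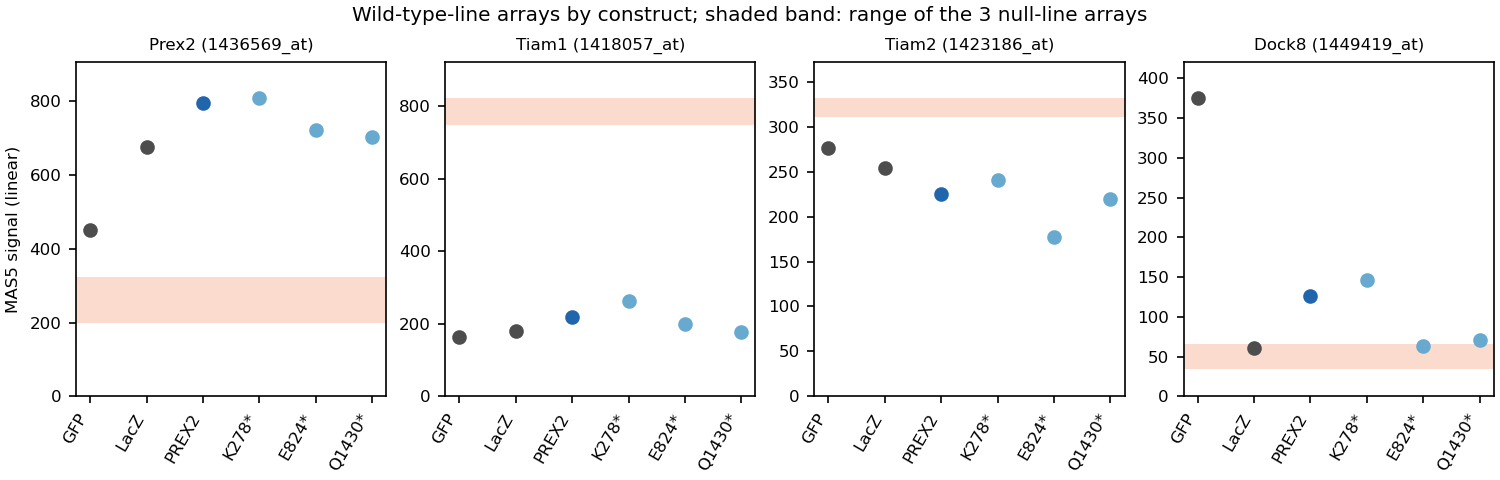
MAS5 signal (linear scale, from 0) of Prex2, Tiam1, Tiam2 and Dock8 on each wild-type-line array by construct, with the range of the 3 null-line arrays shaded. Prex2 is higher on the 4 PREX2 arrays (703 to 809) than with GFP (452) and LacZ (677), and Dock8 is highest with GFP (375).

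Prex2 itself is the first check of these labels. At the tested probe set all 4 PREX2 arrays (703 to 809) read above LacZ (677) and GFP (452). The step from Q1430* (703) to LacZ was smaller than the residual standard deviation (0.20 in log2). Full-length PREX2 lay within the range of the truncated forms. The log2 difference was 0.41 for truncated PREX2 (SE 0.184, n = 3 and 2, 95% interval -0.02 to 0.84, adjusted p = 0.844) and 0.50 for the full-length form (SE 0.246, 1 against 2 arrays, -0.07 to 1.08, adjusted p = 0.99998). Without the wild-type GFP array these were 0.13 and 0.23, and without LacZ 0.69 and 0.78, none of them called. Truncated and full-length forms differed by -0.09 (95% interval -0.64 to 0.45). A probe set that lies outside the expressed sequence, or that does not match it, checks nothing, and where this one lies is not stated in the labels. The dim second Prex2 probe set (1432047_at) was highest with LacZ (43.9). It read 40.8 with full-length PREX2, 9.24 to 34.2 with the truncated forms and 14.7 with wild-type GFP.

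The differences of the Tiam genes and Dock8 from control vector were not called either. Tiam1 was at 0.26 for truncated (95% interval -0.17 to 0.68) and 0.31 for full-length PREX2 (-0.26 to 0.88) against control vector, with K278* (264) the highest wild-type-line array and full-length PREX2 (219) above both controls. Tiam2 was at -0.30 (-0.68 to 0.09) and -0.21 (-0.73 to 0.30), and all 4 PREX2 arrays (178 to 241) read below GFP (276) and LacZ (254). Without the wild-type GFP array Tiam1 was at 0.20 and 0.25 and Tiam2 at -0.24 and -0.16. The intervals for Dock8 were wide, from -2.15 to 0.72 and from -2.23 to 1.64, around -0.71 and -0.29. Without the wild-type GFP array the Dock8 differences turned to 0.39 and 0.81. Both Rac1 probe sets lay between -0.15 and 0.003 in these 2 comparisons.

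Reconstitution with Suv420h1-GFP asks which differences of the null line are undone when the enzyme is returned. No member was called in limma (0 of 11, with 0% of all tested probe sets called). At an unadjusted p below 0.05 there was 1 member, Prex2, and 3.25% of all tested probe sets. Prex2 read 198 on the reconstituted array against 320.5 and 323 on the null arrays, which is -0.64 in log2 (SE 0.246, 1 array against 2, limma adjusted p = 0.99993). This value lies farther from the wild-type line than the null arrays do. Tiam1 read 806, within the null range of 749 to 822, at 0.04 (95% interval -0.53 to 0.61).

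Genes whose pattern was most like each member's were found by Pearson's correlation of log2 signals over the 9 arrays, among 10176 other genes. These values are descriptive, since the arrays share 2 lines and the line sets much of each pattern. For Tiam1 the 5 most alike were the AP-1 subunit gene Fos (r = 0.992), Mageh1 (0.992), the immediate-early gene Egr1 (0.992), Arcn1 (0.991) and Herc6 (0.991), and 852 genes exceeded 0.9. For Prex2 they were Nsg1 (0.993), Ppp2r5c (0.99), Slpi (0.985), the phosphodiesterase gene Pde4b (0.981) and Tcf12 (0.981), and 455 exceeded 0.9. For Tiam2 they were Prrc2a (0.982), Ppp4r1, Brca2, Slc25a13 and Ylpm1, with 234 above 0.9. Rac1 and Vav2, which changed little, had only 3 and 2 such genes, led by the Arp2/3 subunit gene Arpc2 (0.94) for Rac1 and 4632427E13Rik (0.941) for Vav2.

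Over the 6 wild-type-line arrays the lists were different. Tiam1 was most like Exoc4 (0.986), with 29 genes above 0.9, and Prex2 most like Ttyh2 (0.994), with 146. For the brightest Trio probe set 1148 genes exceeded 0.9 there, led by the matrix gene Sparc (0.998), and for Dock8 1112, led by Mtpn (0.999). Both of these members had their extreme wild-type-line value on the GFP array. Over all 9 arrays Trio was most like Metap1d (0.996) and Dock8 most like Banf1 (0.989).

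The rest of the Rac pathway was examined through lists of other exchange factors, inactivators, effectors and upstream genes, each gene at its brightest tested probe set. Over all 10177 tested genes, 18.1% were called higher and 19.9% lower in the null line (all arrays). Of 25 other Rac and Cdc42 exchange factors, 8 rose and 1 fell (32% and 4%), with a median log2 difference of 0.23 against -0.02 over all genes. Arhgef6, the PAK-binding exchange factor alpha-PIX, rose by 3.39 (SE 0.22), reading 505 to 599 in the null line and 8.77 to 56.1 in the wild-type line. The Cdc42 exchange factor Fgd3 rose by 2.49 (SE 0.519), Mcf2l by 1.07 (SE 0.202) and Def6 by 1.04 (SE 0.167). The other genes called here, named after their values were seen, were Arhgef7 (0.62), which encodes the related beta-PIX, Rapgef1 (0.47), better known as an exchange factor for Rap1, the intersectins Itsn1 (0.43) and Itsn2 (0.31) and, lower, the Trio paralogue Kalrn (-0.73, SE 0.152). Arhgef6 and Fgd3 passed the signal level only through the null line and Kalrn only through the wild-type line, where each is high. This favours a difference, so these genes add no support to the count. The Rapgef1 (0.42 to 0.50), Itsn1 (0.27 to 0.45) and Itsn2 (0.31 to 0.33) calls ended without either null array, E824* or Q1430*. With 1 array left out the list had 5 to 9 higher and 1 or 2 lower, and without the wild-type GFP array 8 and 2. The count of 5 came from leaving out either null array, E824* or Q1430*.

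The inactivating side of the cycle had fewer tested genes. Of 13 GTPase-activating proteins and dissociation inhibitors, 3 rose and 1 fell (23.1% and 7.69%, against 18.1% and 19.9% of all tested genes). The median was 0.12. With 1 array left out 2 or 3 rose and 0 or 1 fell; the single lower call was lost without the GFP null array. Arhgap22 and Arhgap24, both of which act on Rac, rose by 2.50 (SE 0.371) and 1.81 (SE 0.12). Arhgap22 (274 to 330 against 11.8 to 77.9) passed the signal level only through the null line, which favours a difference, and so adds no support to the count. Arhgap24 read 995 to 1202 in the null line and 245 to 333 in the wild-type line. Of the Slit-Robo GTPase-activating proteins, Srgap3 rose by 0.72 and Srgap2 fell by 0.48. Both of these calls ended without the GFP null array (0.56 and -0.46), and that of Srgap3 also without Q1430* (0.75).

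**Figure D4:**
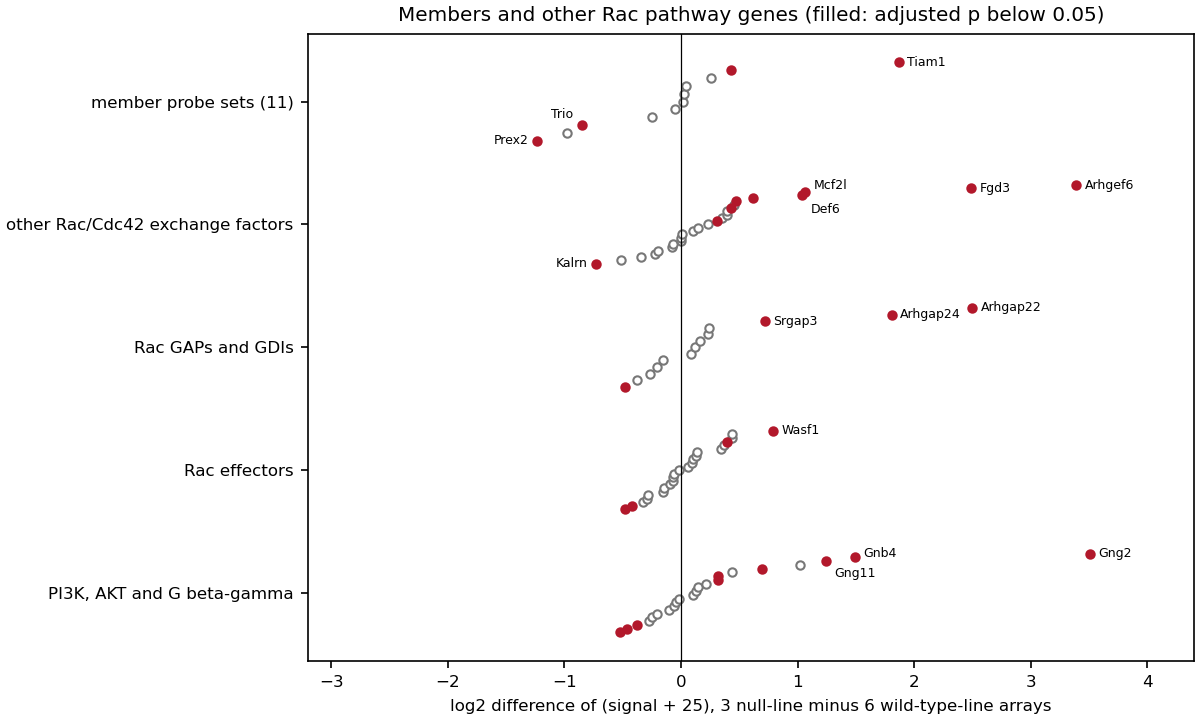
Log2 difference of (signal + 25), 3 null-line minus 6 wild-type-line arrays, of the 11 member probe sets and of each tested gene of 4 pathway lists (1 point each, ordered within a list, filled where the adjusted p is below 0.05). Among other exchange factors 8 of 25 points are filled to the right of 0 and 1 to the left, and Arhgef6 and Gng2 lie farthest right.

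Of 23 tested effectors, 2 rose and 2 fell (8.7% each, against 18.1% and 19.9% of all tested genes), with a median of -0.02. Wasf1, which activates the Arp2/3 complex, rose by 0.79 (SE 0.109), from 883 to 1053 in the wild-type line to 1346 to 2056. The scaffold Iqgap1 rose by 0.39, the Arp2/3 subunit gene Arpc1a fell by 0.48 and the cofilin kinase gene Limk1 fell by 0.42. The Iqgap1 (0.33 to 0.44) and Arpc1a (-0.51 to -0.43) calls ended without the untransduced null, the GFP null, E824* or Q1430* array, and that of Limk1 without the GFP null array (-0.39). With 1 array left out, 1 to 3 effectors rose and 0 to 4 fell, with 4 lower without either control-vector array, 0 without the GFP null array and 1 higher without the untransduced null, GFP null, E824* or Q1430* array. Without the untransduced null, E824* or Q1430* array 1 effector fell.

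Of 22 tested genes listed for PI3-kinase, AKT and G protein signalling, 6 rose and 3 fell (27.3% and 13.6%). Of all tested genes 18.1% rose and 19.9% fell. The median of the list was 0.11. The largest difference was in the G protein gamma subunit Gng2, which read 253 to 330 in the null line and 3.03 to 4.62 in the wild-type line. Its log2 difference was 3.51 (SE 0.177) and depends on the offset, being 5.14 with 5 and 1.95 with 100. It passed the signal level only through the null line, which favours a difference, and so adds no support to the count. The beta subunit gene Gnb4 rose by 1.49 (SE 0.273), the gamma subunit gene Gng11 by 1.24 (SE 0.157) and Prkaca, the catalytic subunit of protein kinase A, by 0.70 (SE 0.0858). Named after their values were seen, Rictor (0.32) and Gng12 (0.31) were also higher, and Gnb5 (-0.53), Gng10 (-0.46) and the phosphatase gene Ppp1ca (-0.37) lower. Of these only Gng10 and Ppp1ca kept their calls with each array left out; Gnb5 (-0.59 to -0.46) and Gng12 (0.29 to 0.33) lost theirs without either null array, E824* or Q1430*, and Rictor (0.30 to 0.36) without the GFP null, E824* or Q1430* array. With 1 array left out 4 to 7 rose and 2 or 3 fell. In the comparison over all arrays, the calls of Arhgef6, Fgd3, Mcf2l, Def6, Arhgef7, Kalrn, Arhgap22, Arhgap24, Wasf1, Gng2, Gnb4, Gng11 and Prkaca stood with each array left out in turn, apart from the 2 arrays that form a group alone. Between the null and control-vector arrays Mcf2l, Def6 and Gnb4 were not called. There Fgd3, Kalrn, Arhgap22, Wasf1, Gng11 and Prkaca lost their calls under at least 1 alternative, and Arhgef6, Arhgap24 and Gng2 kept theirs under all. In the PREX2 and reconstitution comparisons 0 genes of these lists were called in limma. At an unadjusted p below 0.05 there were 0 in each PREX2 comparison, and 2 exchange factors, 2 effectors and 1 upstream gene in the reconstitution comparison.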

How the data were processed

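MAS5 signals, array intensities on a linear scale, were deposited by the authors per the submitters' processing notes; the MAS5 version and scaling target are not stated there. Each array had a mean of 500 once 2% was trimmed from both ends. After removal of 64 controls, 34945 of 45037 probe sets carried 1 gene symbol in the platform annotation, the only source of names. Values were analysed as log2(signal + 25) where the mean over the 9 arrays was at least 100. One limma model (3.58.1, under R 4.3.3) held the 5 groups (residual degrees of freedom 4, variance trend on intensity), with joined groups weighted by arrays, and single-array groups borrowed the spread of the rest. Two-sided p-values were Benjamini-Hochberg adjusted over all tested probe sets, and calls needed an adjusted value below 0.05. No array was dropped or imputed.

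Each gene of a pathway list was taken at its brightest tested probe set, and up to 4 called genes with the largest changes were named. The 5 most similar genes were ranked by Pearson's r. Pak1 stands in 2 lists, and 1 further list is not reported here. Members and lists were chosen with earlier results of these data known. The number of arrays limits the precision. Alternatives were an offset of 5 or 100, a signal level of 200 or none, quantile normalization, a fit with no trend, the 2 compared groups by themselves, 2 line means, and leaving out each array whose group kept another, with the same probe sets tested. The fit was tested on simulated data.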

Additional observations from a re-analysis of the deposited data

How the results depend on the processing

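The 4 member calls over all arrays numbered 3 to 5 under every alternative run. Between the null and control-vector arrays 3 members were called, 1 without a signal level, 1 with the compared groups alone, and 1 to 3 with 1 array left out; without a level more probe sets share the adjustment. The counts of 0 in the other 4 comparisons stayed at 0 in all alternatives run. Member differences that changed sign were never called: after quantile normalization Rac1 1451086_s_at (0.0026) and Trio 1457492_at (-0.13) over all arrays, and, with 1 array left out, Trio 1454711_at (-0.36 to 0.295 against control vector, -0.052 to 0.091 over all arrays), Trio 1457492_at (-0.033 to 0.25), Rac1 1423734_at (-0.011 to 0.11) and Dock8 (-1.82 to 0.39 for truncated, -1.40 to 0.81 for full-length PREX2). Over all probe sets, 3753 calls against control vector became 1834 with the compared groups alone, 1226 without the untransduced and 1011 without the GFP null array, and 7181 over all arrays became 4529 and 4332 without those. Truncated PREX2 against control vector gave 117 calls without LacZ and 0 without the wild-type GFP array, full-length PREX2 3 without LacZ, and reconstitution 1 after quantile normalization. Signals near background limit 18 of the 29 member probe sets. No paired analysis was possible because the labels give the arrays no shared replicate numbers.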
